A study of Bos taurus with 18 samples.

Results

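Genes that separate bovine endometrial epithelial cells (bEECs) from bovine endometrial stromal cells (bESCs) were described after the cells had been cultured for 24 h in an endometrium-on-a-chip with a protein of the conceptus. The libraries were chosen by their labels as the 6 bEEC and the 6 bESC libraries exposed to bovine CAPG or PDI made as recombinant proteins (rbCAPG and rbPDI), 12 of 18 libraries in all, and the other 6 libraries, with the vehicle control (VC, phosphate-buffered saline), served for comparison. Each protein was given at 1 μg/mL in the medium that flowed past the bEECs, on the lower side of a porous membrane, while the bESCs of the same animal lay above it without flow. The cells were primary cells from the uterine tracts of 3 cows in the late-luteal stage, whose ages the sources used here do not give, and were purified in culture by their different detachment with trypsin. In each device the 2 cell types came from the same cow, so the 6 devices with protein gave 6 pairs of libraries from 3 animals, 1 pair per animal with each protein. Cell type and chamber went together in every device: flow and the side on which the protein was given cannot be told apart from cell type. The same holds for passage number, the number of cells seeded and the strength of the trypsin used at collection.

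The uterine epithelium is a polarised sheet held together by tight and adherens junctions, which carries mucins on its surface and secretes into the uterine lumen. The stroma below it is made of fibroblast-like cells that build the collagen and proteoglycan matrix and pass signals to the epithelium. CAPG, the macrophage-capping protein, caps actin filaments, and PDI (protein disulfide isomerase, gene P4HB) forms disulfide bonds in newly made proteins. The bovine conceptus releases both around the time of pregnancy recognition.

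Total counts per library ran from 28898224 to 36622769 in the bEECs with protein and from 10072851 to 44253149 in the bESCs, where the bESC library of rbPDI replicate 1 was the lowest. Expression was given as CPM (counts scaled to a common library size) after TMM scaling, and 3 counts, used as the lowest countable level, came to 0.0557 to 0.261 CPM. The difference between cell types was fitted by edgeR as log2 of bEEC over bESC within each device, so positive values are higher in bEECs. A gene was called at a Benjamini-Hochberg adjusted p under 0.05 over all 17931 tested genes with an absolute log2 difference above 1. In these bulk libraries, fewer cells of a type and less RNA per cell cannot be told apart. Symbols were taken from the study's lists of genes changed by rbCAPG in these libraries, in bEECs (147 symbols here) and in bESCs (52, with 9 in both), so all 190 named genes were picked for a response to rbCAPG against VC and not for a difference between cell types.

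The cell type labels were checked on the markers that had an identifier, 17 of the 36 listed. Of 5 epithelial markers, OCLN, MUC1, AGR2 and CDH26 were called higher in bEECs and CFTR was called higher in bESCs. Their summed level was 2728 to 4235 CPM in the bEEC libraries with protein and 5.39 to 10.04 CPM in the bESC libraries. AGR2 was the largest part of the bEEC sum, at 1930.4 to 3356 CPM, followed by MUC1 at 608 to 772 CPM. In the VC bEECs AGR2 was at 203, 852 and 340 CPM. All 6 stromal markers (COL6A1, VCAN, ZEB1, HAND2, EMILIN1 and SRPX2) were called higher in bESCs, with sums of 241 to 392 CPM in bESCs and 13.3 to 49.1 CPM in bEECs. The cell type labels therefore stood apart in every library, with CFTR as the marker that lay against its class. CFTR, the chloride channel of many epithelia, was low in both, 0.213 to 0.893 CPM (median 0.450 CPM) in bEECs and 1.37 to 2.98 CPM (median 1.99 CPM) in bESCs (log2 difference -2.15, SE 0.30, adjusted p = 8.57e-05).

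Markers of other cell types were also read. The 3 immune markers with an identifier were all called higher in bEECs: AIF1, a calcium-binding protein of macrophages, CXCR4, a chemokine receptor, and CD14, a co-receptor for bacterial lipopolysaccharide. Their sum was 81.0 to 150.3 CPM in bEECs with protein and 7.13 to 22.6 CPM in bESCs. CD14 was at 21.4 to 41.8 CPM in bEECs and 5.86 to 20.02 CPM in bESCs (log2 difference 1.48, SE 0.35, adjusted p = 0.00351), and without the 3 devices of replicate 3 its log2 difference was 0.95, under the limit of 1 (adjusted p = 1.34e-06 to 0.0922 over 23 alternatives). CXCR4 was at 28.0 to 78.9 CPM against 1.20 to 3.83 CPM (log2 difference 4.60, SE 0.46, adjusted p = 6.83e-06). Among 3 endothelial markers, ESM1, a secreted proteoglycan, was far higher in bEECs, with 2997 to 6579 CPM (median 4150.4 CPM) against 56.8 to 299 CPM (median 122 CPM) in bESCs (log2 difference 5.13, SE 0.37, adjusted p = 5.24e-07). SELP, the adhesion molecule P-selectin, was higher in bESCs, 82.0 to 646 CPM (median 354 CPM) against 4.52 to 36.8 CPM (median 14.1 CPM) in bEECs (log2 difference -4.56, SE 0.27, adjusted p = 1.13e-07), and TEK, the angiopoietin receptor, was not called (log2 difference 1.15, SE 0.50, adjusted p = 0.0644). No marker of these lists was at 0 in all libraries of a cell type, and the part of other cells in any result was not tested.

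After protein, 7703 genes were called, 4098 higher in bEECs (22.9% of the genes tested) and 3605 higher in bESCs (20.1%). With counts scaled by library totals alone, the median log2 difference of all genes moved from 0.016 to -0.27 and the split became 3367 higher in bEECs and 4544 higher in bESCs, so the direction of the majority rests on the scaling. The 6 bEEC and the 6 bESC libraries did not overlap for 7670 genes (42.8%). The median log2 difference of the called genes was 2.32 in bEECs and -2.47 in bESCs, and differences over 5 in size were found for 943 and 477 genes.

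Most of the separation was also there with VC, where 3460 genes were called higher in bEECs (19.3%) and 3330 higher in bESCs (18.6%). The VC libraries came from other devices of the same 3 animals, so the 2 comparisons share animals but no library. Both were taken from the same fit of all 18 libraries, so they also share its gene filter and its estimate of the spread. Of the genes called with VC, 3122 (90.2%) were called higher in bEECs again after protein and 2970 (89.2%) higher in bESCs again. These were 76.2% and 82.4% of the genes called after protein, and together 34% of all tested genes. The protein comparison had 6 devices and the VC comparison 3, so their counts are not at equal numbers. At 3 devices each, rbCAPG gave 6958 calls, rbPDI 6524 and VC 6790. In all, 338 genes called higher in bEECs with VC and 358 called higher in bESCs were not called after protein, and 2 genes were called in opposite directions.

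**Figure D1:**
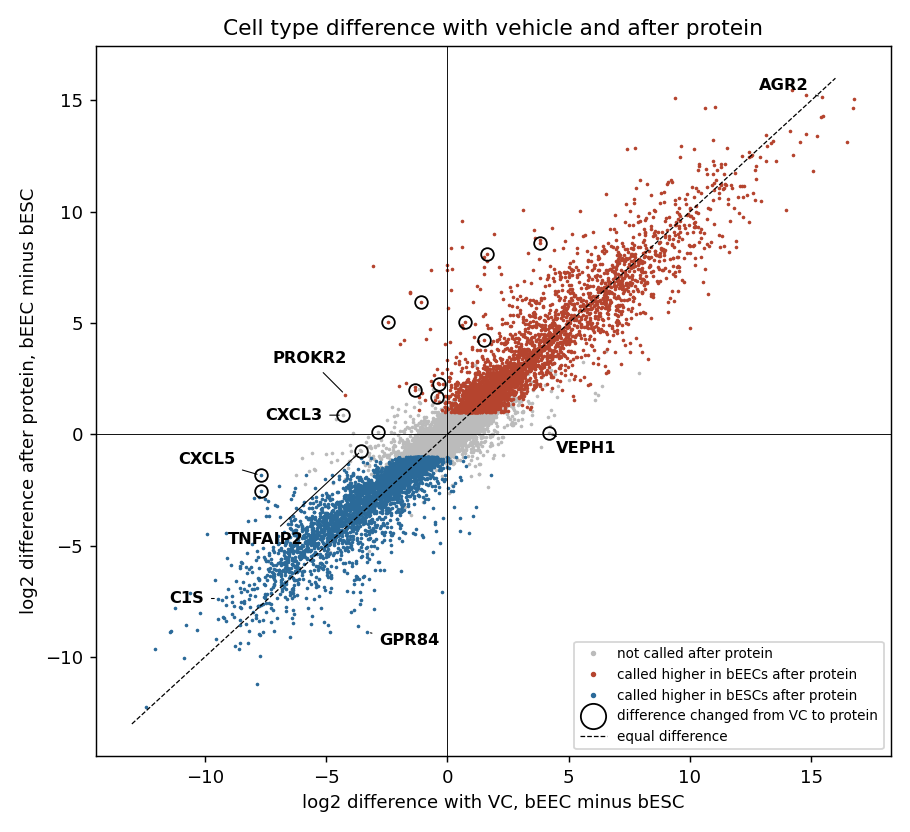
Log2 difference of each of the 17931 tested genes (1 point each) with VC (horizontal axis, 3 devices) and after protein (vertical axis, 6 devices), with genes called after protein in red (higher in bEECs) and blue (higher in bESCs), genes not called in grey, and the 15 genes whose difference changed circled. Most points lie along the dashed line of equal difference, while CXCL5, CXCL3 and TNFAIP2 lie above it and VEPH1 below it.

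Of the 190 named genes, 67 were called higher in bEECs and 72 higher in bESCs after protein, and 51 were not called. The lists below were drawn from these genes, so these shares are their nearer background. With VC the counts were 48, 83 and 59. The median log2 difference of the named genes was -0.059 after protein and -0.75 with VC, beside 0.016 and 0.037 over all tested genes. The 147 genes listed for bEECs had a median of 0.050 after protein and -0.61 with VC, and 57 were called higher in bEECs and 53 higher in bESCs. The 52 listed for bESCs had -0.40 and -0.49, with 14 called higher in bEECs and 19 higher in bESCs. These genes had been picked on the VC and rbCAPG libraries compared here, so the shift from VC is a description and not independent evidence.

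The 10 largest differences towards bEECs were taken only among the 190 named genes, without overlap and with at least 5 CPM in bEECs. Over all tested genes, differences ran from -12.2 to 15.5. MMP13 apart, these 10 genes were at 1.04 CPM or less in every bESC library. AGR2 (ENSBTAG00000024406), an endoplasmic reticulum protein of the PDI family that mucin-secreting cells use, was at 1930.4 to 3356 CPM (median 2866 CPM) in bEECs, and its bESC libraries held 0 to 6 counts (log2 difference 15.16, SE 0.65, adjusted p = 1.6e-08). The fitted size of such a difference rests on a handful of bESC counts. GPX2, a glutathione peroxidase of epithelia, was at 180.2 to 323 CPM (median 276 CPM) in bEECs and 0 to 0.130 CPM in bESCs (log2 difference 12.26, SE 0.50, adjusted p = 1.29e-08). MUC1, the membrane mucin of the luminal surface, was at 608 to 772 CPM (median 721 CPM) in bEECs and 0.369 to 1.04 CPM in bESCs (log2 difference 10.19, SE 0.36, adjusted p = 6.83e-09).

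The gene for the collagenase MMP13 was at 1063 to 3579 CPM (median 2319 CPM) in bEECs and 2.09 to 16.2 CPM (median 3.36 CPM) in bESCs (log2 difference 9.02, SE 0.87, adjusted p = 4.9e-06). SCIN, which severs actin filaments, was at 76.9 to 144 CPM in bEECs and 0 to 0.208 CPM in bESCs (log2 difference 10.90, SE 0.47, adjusted p = 1.68e-08). RBM47, an RNA-binding protein, was at 97.1 to 112.6 CPM and 0 to 0.246 CPM (log2 difference 10.59, SE 0.55, adjusted p = 4.99e-08), and GIPC2, a scaffold protein with a PDZ domain, was at 22.6 to 34.8 CPM and 0 to 0.261 CPM (log2 difference 8.46, SE 0.47, adjusted p = 7.96e-08). The other 3 had no bESC library above 3 counts, so only a lower bound can be given. CYP24A1, the enzyme that inactivates vitamin D, was at 17.3 to 36.8 CPM (median 30.3 CPM) in bEECs, at least 281-fold higher than in bESCs. AIF1 was at 20.1 to 30.6 CPM (median 27.8 CPM), at least 266-fold higher, and HTR1E, a serotonin receptor, at 6.04 to 12.2 CPM (median 9.55 CPM), at least 90.7-fold higher. These bounds set the mean of the 6 bEEC libraries against the mean level of 3 counts in a bESC library.

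Among the named genes chosen in the same way, the 10 largest differences towards bESCs held complement, lipid and signalling genes. Over all tested genes, 477 were called higher in bESCs by more than 5 on the log2 scale. C1S and C1R, the paired serine proteases that start the classical complement pathway, were at 265 to 673 CPM (median 470.0 CPM) and 156 to 347 CPM (median 223 CPM) in bESCs. In bEECs they were at 1.49 to 4.30 CPM and 1.32 to 4.08 CPM (log2 difference -7.37, SE 0.28, adjusted p = 9.63e-09 for C1S and -6.56, SE 0.23, adjusted p = 7.25e-09 for C1R). SST, the hormone somatostatin, was at 108 to 442 CPM (median 144 CPM) in bESCs and 0.511 to 2.60 CPM in bEECs (log2 difference -6.96, SE 0.49, adjusted p = 4.54e-07). OLR1, a receptor for oxidised low-density lipoprotein, was at 708 to 2039 CPM (median 1127 CPM) in bESCs and 5.37 to 19.9 CPM in bEECs (log2 difference -6.71, SE 0.35, adjusted p = 5.15e-08). The lack of overlap of these genes was part of how they were chosen.

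GPR84, a receptor for medium-chain fatty acids, had the largest fitted difference of all named genes towards bESCs, but its levels there spread widely, 2.13 to 15.99 CPM (median 6.25 CPM), against 0 to 0.134 CPM in bEECs (log2 difference -8.88, SE 0.75, adjusted p = 7.17e-06). With VC its bESC libraries were at 0.264, 0.536 and 0.0428 CPM. ARNTL2, a transcription factor of the circadian clock family, was at 8.01 to 18.7 CPM (median 15.9 CPM) in bESCs, at least 147-fold higher than in bEECs, where no library passed 3 counts. ALOX12, a lipoxygenase that oxidises arachidonic acid, was at 62.7 to 251 CPM in bESCs and 2.43 to 5.84 CPM in bEECs (log2 difference -5.13, SE 0.32, adjusted p = 1.62e-07). FYN, a kinase of the Src family, was at 88.7 to 181 CPM and 2.80 to 5.58 CPM (log2 difference -5.04, SE 0.27, adjusted p = 6.12e-08). FAM110B and VSTM4 had log2 differences of -5.26 and -5.03, with bESC levels of 24.8 to 52.3 CPM and 47.8 to 67.9 CPM.

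**Figure D2:**
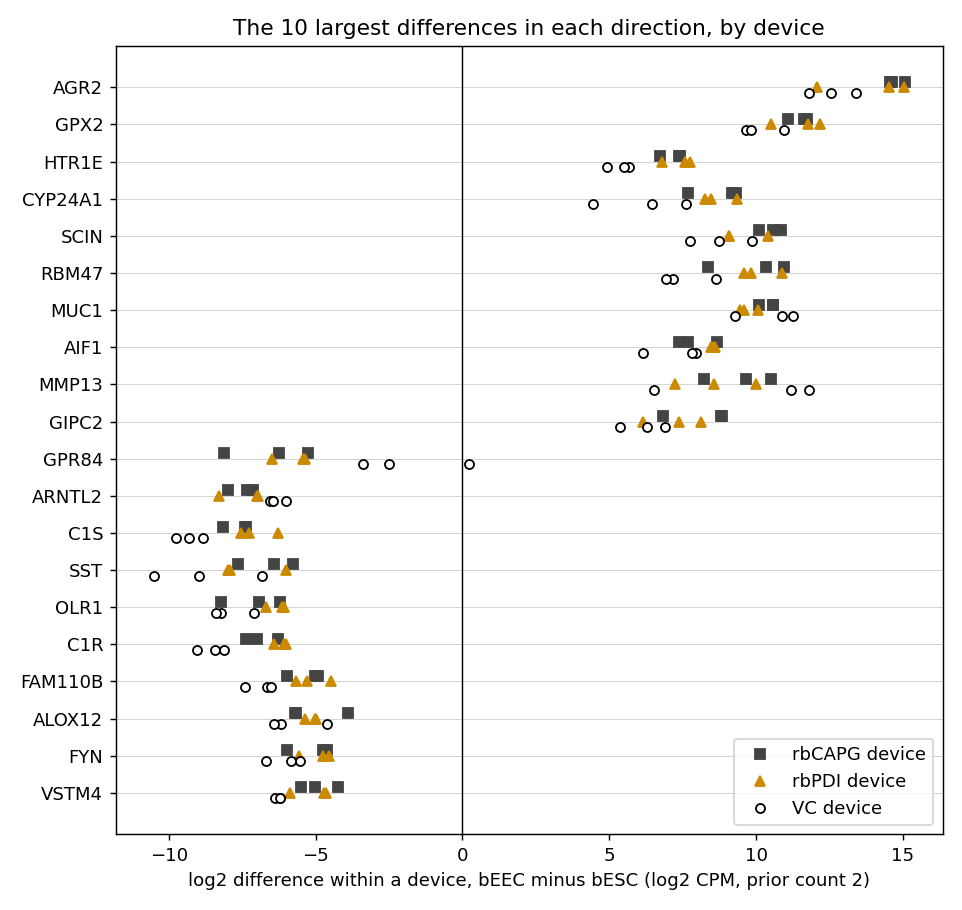
Log2 difference, bEEC minus bESC, within each device (log2 CPM with a prior count of 2, horizontal axis) for 20 of the named genes, those with the largest differences in each direction. Each gene has 3 rbCAPG devices (squares), 3 rbPDI devices (triangles) and 3 VC devices (open circles). The genes were chosen as those without overlap between the cell types, and AGR2 in rbPDI replicate 1 lies below the other protein devices.

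Genes of cell junctions and adhesion were split between the cell types. Of 8 genes, 4 were called higher in bEECs and 2 higher in bESCs, beside 22.9% and 20.1% of all tested genes. The other 2 were not called, and the counts with VC were the same. OCLN, a protein of tight junctions, was at 89.0 to 118 CPM (median 106 CPM) in bEECs and 0.261 to 3.24 CPM (median 1.32 CPM) in bESCs (log2 difference 6.19, SE 0.37, adjusted p = 1.26e-07), and its bESC libraries with VC were at 0.308, 0.227 and 0.257 CPM. CDH26, a cadherin, was at 24.6 to 75.2 CPM in bEECs and 2.17 to 6.12 CPM in bESCs (log2 difference 3.60, SE 0.24, adjusted p = 2.92e-07). FERMT1, which links integrins to actin, and STX19, a syntaxin of membrane traffic, had log2 differences of 2.92 and 4.93. On the bESC side were ITGA1, a collagen-binding integrin chain, and CLMP, an adhesion molecule, at -4.63 and -4.35. The connexin GJB6 (-0.10) and CD47 (0.94), a surface protein that signals to phagocytes, were not called.

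The mucin, secretory and surface defence genes lay on the bEEC side. After protein, 8 of 9 were called higher in bEECs and 0 higher in bESCs, beside 22.9% and 20.1% of all tested genes. With VC, 6 were called higher in bEECs. The median log2 difference was 8.38, or 4.74 with the 3 genes whose bESC libraries all held 3 counts or fewer (CAPN14, PGLYRP3 and CHI3L2) at their lower bounds. Beside AGR2, MUC1 and GPX2, GALNT7, an enzyme that adds sugars to mucins, was at 81.4 to 127 CPM in bEECs and 18.8 to 34.8 CPM in bESCs (log2 difference 1.97, SE 0.17, adjusted p = 2.01e-06). PGLYRP3, which binds bacterial peptidoglycan, was at 1.43 to 5.92 CPM in bEECs, at least 26.8-fold higher than in bESCs. CHI3L2, a chitinase-like protein, was at 0.248 to 0.751 CPM, at least 4.98-fold higher, and CAPN14, a calpain protease, at 0.6254 to 1.67 CPM, at least 12.1-fold higher. GSDMA, a pore-forming gasdermin, was not called (log2 difference 1.07, SE 0.49, adjusted p = 0.0778).

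Transporters and channels were called in both directions, 7 of 16 higher in bEECs and 5 higher in bESCs (3 and 4 with VC). Of all tested genes, 22.9% and 20.1% were called in these directions after protein. The median log2 difference of the list was 1.52. Several of the bEEC genes were low: SLC5A1, the sodium-glucose cotransporter, was at 0.357 to 1.66 CPM, and SLC17A1, a phosphate transporter, at 1.01 to 4.26 CPM, at least 11.4-fold and 23.7-fold higher than in bESCs. Of more strongly expressed genes, ABCA3, a lipid transporter, was at 29.7 to 78.2 CPM in bEECs and 2.52 to 9.46 CPM in bESCs (log2 difference 3.36, SE 0.23, adjusted p = 3.8e-07). SLC14A1, a urea transporter, was higher in bESCs, 18.3 to 56.1 CPM against 6.28 to 15.9 CPM (log2 difference -1.68, SE 0.29, adjusted p = 0.000423), as was SLC39A14, a zinc and iron importer (log2 difference -2.89, SE 0.16, adjusted p = 9.05e-08). Without the device rbPDI replicate 1, which holds the shallowest bESC library, 10 of the 16 were called higher in bEECs and 5 higher in bESCs.

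Extracellular matrix genes lay on the bESC side. Of 10 genes, 9 were called higher in bESCs and 0 higher in bEECs, beside 20.1% and 22.9% of all tested genes. The median log2 difference was -3.19, where all 10 had been called higher in bESCs with VC (median -4.70). NID1, a basement membrane protein, was at 43.4 to 81.0 CPM (median 64.3 CPM) in bESCs and 1.37 to 2.80 CPM (median 1.89 CPM) in bEECs (log2 difference -5.01, SE 0.28, adjusted p = 8.25e-08). VCAN, the large proteoglycan versican, was at 100.4 to 262 CPM (median 126 CPM) in bESCs and 2.90 to 12.7 CPM (median 5.44 CPM) in bEECs (log2 difference -4.62, SE 0.38, adjusted p = 1.26e-06). COL6A1, a chain of type VI collagen, was at 40.3 to 71.8 CPM (median 54.3 CPM) in bESCs and 3.54 to 18.5 CPM (median 9.97 CPM) in bEECs (log2 difference -2.53, SE 0.32, adjusted p = 3.96e-05). HAS2, which makes hyaluronan, EMILIN1 of elastic fibres and SRPX2 had log2 differences of -3.32, -3.27 and -4.06. ADAMTSL5 was the gene not called (log2 difference -0.051, SE 0.19, adjusted p = 0.829), and its libraries overlapped.

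Each of the 10 matrix genes had a smaller absolute difference after protein than with VC, beside 54.1% of all tested genes, but none of these changes was called. All 10 were listed for a change with rbCAPG in bEECs, so their count is not independent of that choice. In bEECs VCAN was at 1.72, 3.23 and 1.94 CPM with VC, 3.64, 5.25 and 12.7 CPM with rbCAPG and 2.90, 5.63 and 9.69 CPM with rbPDI in replicates 1, 2 and 3. The sum of the 6 stromal markers in bEECs was 6.95 to 15.8 CPM with VC and 13.3 to 49.1 CPM with protein. A wider set of 171 stromal genes, chosen from the rbPDI devices alone (called higher in bESCs by more than 5 on the log2 scale with over 10 CPM there), reached in the bEECs 0.583% to 1.05% of its bESC sum in the 3 VC devices and 0.969% to 1.74% in the 3 rbCAPG devices. In the other direction, 337 epithelial genes chosen in the same way reached in the bESCs 0.610% to 1.41% of their bEEC sum with VC and 0.611% to 0.732% with rbCAPG. Chosen from the rbCAPG devices instead, 179 stromal genes reached 0.489% to 0.944% with VC and 0.986% to 1.54% with rbPDI, and 367 epithelial genes 0.757% to 3.93% and 1.16% to 2.28%. The part of bESCs or their RNA in the bEEC libraries in these values was not tested.

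**Figure D3:**
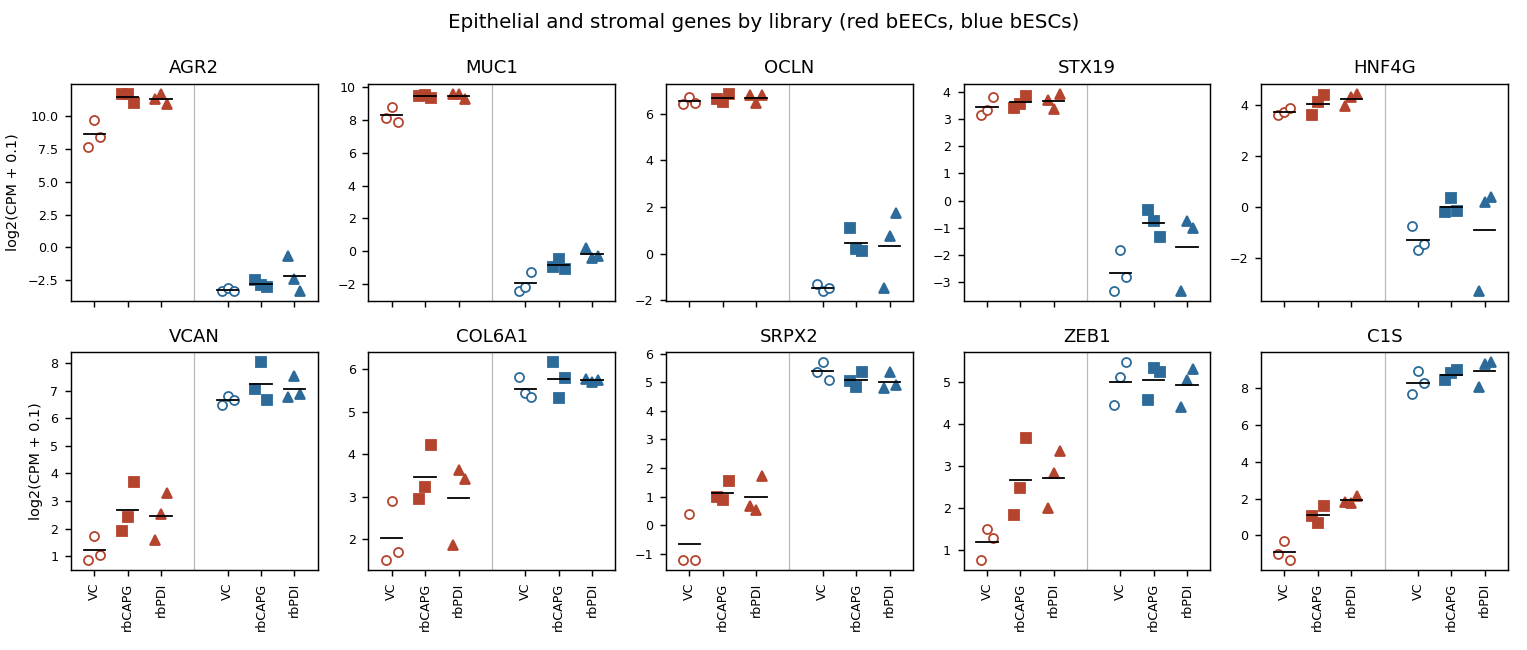
Level of 5 genes higher in bEECs (upper row) and 5 higher in bESCs (lower row) as log2(CPM + 0.1) in every library (vertical axis), with bEECs in red and bESCs in blue, VC as open circles, rbCAPG as squares, rbPDI as triangles, and the group mean of the log values as a black bar. The red and blue points with protein stand apart in each panel, while the bEEC points of VCAN, COL6A1, SRPX2, ZEB1 and C1S with protein have higher means than those with VC.

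Proteases and their inhibitors divided evenly, with 5 of 11 called higher in bEECs and 5 higher in bESCs (3 and 5 with VC). The 190 named genes also divided nearly evenly, with 67 and 72, beside 22.9% and 20.1% of all tested genes. PLAU, the urokinase-type activator, was at 2706 to 8139 CPM (median 3855 CPM) in bEECs and 31.7 to 188 CPM (median 67.4 CPM) in bESCs (log2 difference 5.86, SE 0.30, adjusted p = 4.53e-08), and its receptor PLAUR was also higher in bEECs (log2 difference 3.46, SE 0.27, adjusted p = 1.02e-06). PLAT, the tissue-type activator, was at 1822 to 3100.0 CPM (median 2715 CPM) in bEECs and 267 to 591 CPM (median 338 CPM) in bESCs (log2 difference 2.76, SE 0.34, adjusted p = 3.43e-05), and its VC difference was 0.15, not called. The change from VC was not called either (adjusted p = 0.261, called in 2 of 21 alternatives). CST3, an inhibitor of cysteine proteases, was higher in bEECs (log2 difference 2.81, SE 0.38, adjusted p = 7.93e-05), and ADAMTS5, which cleaves proteoglycans, in bESCs (log2 difference -4.79, SE 0.33, adjusted p = 3.91e-07). MMP1, the interstitial collagenase, was at 135 to 234 CPM in bEECs and 49.5 to 208 CPM in bESCs and was not called (log2 difference 0.89, SE 0.40, adjusted p = 0.0743).

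Among transcription and RNA regulators, 4 of 14 were called higher in bEECs and 7 higher in bESCs (3 and 8 with VC), beside 22.9% and 20.1% of all tested genes. ZEB1, which represses epithelial genes, was at 21.1 to 40.7 CPM (median 35.4 CPM) in bESCs and 3.47 to 12.6 CPM (median 6.26 CPM) in bEECs (log2 difference -2.31, SE 0.19, adjusted p = 1.65e-06). HAND2, a factor of the progesterone response in uterine stroma, was at 3.82 to 7.11 CPM (median 5.32 CPM) and 0.128 to 0.626 CPM (median 0.381 CPM) (log2 difference -3.98, SE 0.34, adjusted p = 1.91e-06). HNF4G, a nuclear receptor of epithelia, was higher in bEECs, 12.1 to 22.0 CPM (median 18.5 CPM) against 0 to 1.20 CPM (median 0.911 CPM) (log2 difference 4.45, SE 0.36, adjusted p = 1.32e-06), and NFE2L3, a leucine zipper factor, had a difference of 5.28. IRF1, a factor of the interferon response, was just past the limit towards bESCs (log2 difference -1.02, SE 0.19, adjusted p = 0.000889). CEBPD (-0.98), KLF9 (-0.95) and MAFF (-0.73) were not called.

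Growth factor, guidance and vascular genes were also on both sides. After protein, 5 of 11 were higher in bEECs and 3 higher in bESCs, beside 22.9% and 20.1% of all tested genes. VC had given 3 and 6. Without the device rbPDI replicate 1 the counts were 4 and 2. EDN1, the vasoconstrictor endothelin, was at 103 to 208 CPM (median 137 CPM) in bEECs and 1.87 to 12.1 CPM (median 5.77 CPM) in bESCs (log2 difference 4.89, SE 0.25, adjusted p = 4.99e-08). NRP2, a receptor for semaphorins and vascular growth factors, was at 11.9 to 15.7 CPM and 0.696 to 2.84 CPM (log2 difference 2.78, SE 0.22, adjusted p = 9.43e-07). FGFR1, a fibroblast growth factor receptor, and ROR1, a Wnt receptor, were higher in bESCs, with differences of -2.47 and -3.30.

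Of 9 chemokines, 2 were called higher in bEECs, 1 higher in bESCs and 6 were not called after protein, with a median log2 difference of 0.053. The share not called was near that of all tested genes, 10228 of 17931, and above that of the named genes, 51 of 190. With VC the counts were 2, 4 and 3, and without the device rbPDI replicate 1 they were 1 higher in bEECs and 3 higher in bESCs after protein. CXCL16, a membrane-bound chemokine, was at 573 to 1154 CPM in bEECs and 226 to 641 CPM in bESCs (log2 difference 1.10, SE 0.29, adjusted p = 0.00676), and CX3CL1 was at 2.52 to 5.84 CPM and 0.454 to 1.78 CPM (log2 difference 2.29, SE 0.47, adjusted p = 0.00176). CXCL8, which attracts neutrophils, was at 234 to 1779 CPM (median 485 CPM) in bEECs and 707 to 3012 CPM (median 1104 CPM) in bESCs and was not called (log2 difference -1.31, SE 0.61, adjusted p = 0.0818, called under 8 of 23 alternatives). CCL20 (-0.10, 95% interval -0.999 to 0.80) and CCL5 (0.61, -0.30 to 1.53) were not called either, and their intervals allow differences of close to 1 or more on the log2 scale. Reads of CXCL2, CXCL3, CXCL5 and GRO1, paralogs of one another, were divided by the authors' counting (11 or 12 of the 12 values were not whole), so each gene's own value is uncertain.

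Of 12 interleukins, cytokines and their receptors, 7 were called higher in bEECs and 2 higher in bESCs (4 and 2 with VC). Beside them stand 67 and 72 of the 190 named genes, and 22.9% and 20.1% of all tested genes. IL1RN, the interleukin 1 receptor antagonist, was at 80.5 to 197 CPM (median 121 CPM) in bEECs and 0.223 to 1.04 CPM (median 0.532 CPM) in bESCs (log2 difference 7.84, SE 0.33, adjusted p = 1.4e-08). IL18R1, the interleukin 18 receptor, was at 15.3 to 33.7 CPM in bESCs and 0.827 to 1.67 CPM in bEECs (log2 difference -4.22, SE 0.22, adjusted p = 6.09e-08). IL6 was at 894 to 3463 CPM (median 1413 CPM) in bEECs and 1106 to 2595 CPM (median 1673 CPM) in bESCs and was not called (log2 difference -0.22, SE 0.51, adjusted p = 0.727, 95% interval -1.34 to 0.90). TNFSF15, a cytokine of the tumour necrosis factor family, was at 158 to 262 CPM (median 211 CPM) in bEECs and 18.1 to 167 CPM (median 65.3 CPM) in bESCs (log2 difference 1.55, SE 0.34, adjusted p = 0.00213), and its libraries overlapped, where its VC difference was 5.21.

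Genes of the NF-kB pathway gave 2 calls of 9, both higher in bESCs (4 with VC). Called higher in bESCs were 20.1% of all tested genes, close to this share, and 72 of the 190 named genes. TNIP1, an inhibitor of the pathway, was at 169 to 386 CPM (median 298 CPM) in bESCs and 51.2 to 83.7 CPM (median 60.5 CPM) in bEECs (log2 difference -2.18, SE 0.21, adjusted p = 4.13e-06), and MAP3K8, a kinase, had a difference of -1.55. NFKBIA, the inhibitor IκBα, had an adjusted p of 0.00597 with a difference of 0.79, under the limit of 1, and NFKB1, NFKB2, NFKBIZ, TNFAIP3, BIRC3 and ZC3H12A had differences of 0.54, -0.49, -0.46, 0.55, 0.33 and -0.61. All 5 genes of the list for prostaglandins, related lipids and nitric oxide (PTGS2, PLA2G4A, PLA2R1, ALOX12 and NOS2) were called higher in bESCs, 3 of them with VC. After protein, that share was 20.1% over all tested genes. PTGS2, PLA2G4A and NOS2 were listed for a change with rbCAPG in bESCs, and PLA2R1 and ALOX12 for a change in bEECs. The count of 5 is therefore not independent of that choice. PTGS2, the inducible cyclooxygenase, was at 151 to 770.1 CPM (median 356 CPM) in bESCs and 32.5 to 72.3 CPM (median 39.1 CPM) in bEECs (log2 difference -2.89, SE 0.33, adjusted p = 1.83e-05). NOS2, the inducible nitric oxide synthase, was low, 1.20 to 30.1 CPM against 0.124 to 1.16 CPM (log2 difference -3.95, SE 0.49, adjusted p = 0.000101), and PLA2R1 and PLA2G4A, a phospholipase receptor and a phospholipase, had differences of -3.10 and -1.30.

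**Figure D4:**
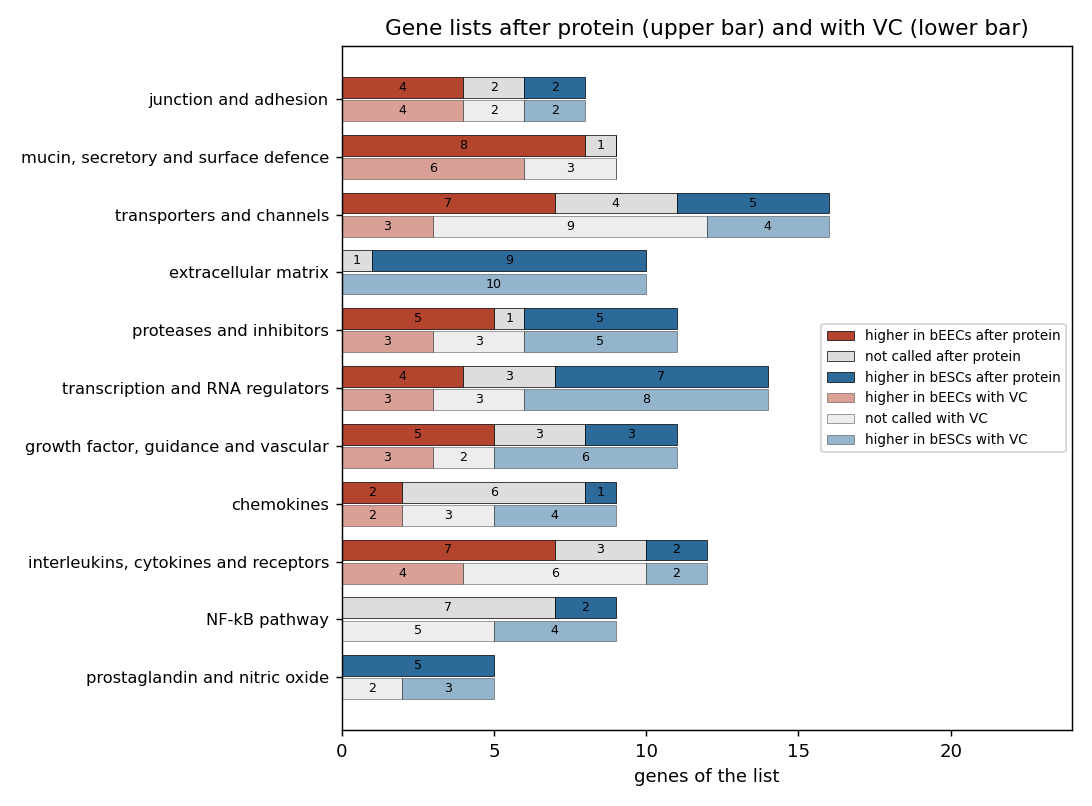
Number of genes of each list (horizontal axis) called higher in bEECs (red), not called (grey) and called higher in bESCs (blue), after protein in the upper bar (6 devices) and with VC in the lower, paler bar (3 devices). Genes of the mucin, secretory and surface defence list lie on the bEEC side. Those of the matrix list and of the prostaglandin and nitric oxide list lie on the bESC side. All genes of the lists had been picked for a response to rbCAPG in these libraries. The shares not called were 6 of 9 for chemokines and 7 of 9 for NF-kB genes. Beside them, 10228 of all 17931 tested genes and 51 of the 190 named genes were not called.

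The named genes whose lack of a called difference was measured most narrowly were PRORP, BPNT2, RHOJ, PDXK and MAFF. RHOJ was at 21.2 to 49.3 CPM (median 40.2 CPM) in bEECs and 21.9 to 38.6 CPM (median 30.6 CPM) in bESCs, with a log2 difference of 0.23 and a 95% interval of -0.11 to 0.58. The intervals were 0.25 to 0.88 for PRORP, a nuclease of mitochondrial transfer RNA, 0.11 to 0.77 for BPNT2, a phosphatase of the Golgi, and 0.26 to 0.95 for PDXK, which activates vitamin B6. MAFF, a small basic leucine zipper factor, had -1.08 to -0.39. The intervals of BPNT2, RHOJ, PRORP and PDXK lay within 1 on the log2 scale, and that of MAFF reached past it. PRORP, BPNT2, PDXK and MAFF had adjusted p values of 0.00548, 0.0251, 0.00621 and 0.00194, so in this fit their small differences were beyond the spread between devices. Their sizes moved with the settings. Over 23 alternatives they ran from 0.28 to 0.64 for PRORP, 0.15 to 0.57 for BPNT2, 0.31 to 0.69 for PDXK and -1.02 to -0.64 for MAFF.

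Whether the cell type difference itself changed from VC to protein was tested as an interaction. It was called for 15 genes (0.0837% of those tested), towards bEECs for 14 and towards bESCs for 1, with 885 genes at an unadjusted p under 0.05. The call count depended most on the VC devices, of which there were only 3. It was 6 without VC replicate 2, 7 without VC replicate 3 and 0 without VC replicate 1, where 755 genes had an unadjusted p under 0.05. With 1 device with protein left out at a time, it was 10 to 17. Without all 3 devices of replicate 1 or of replicate 2 it was 0 (718 and 891 genes at an unadjusted p under 0.05), and without those of replicate 3 it was 3. DESeq2 called 138 genes. Of the 190 named genes, 4 were among the 15.

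CXCL5 (ENSBTAG00000009812), a chemokine for neutrophils, was at 15.4, 18.3 and 25.1 CPM in the VC bEECs and 3665, 8609 and 1946 CPM in the VC bESCs. After protein it was at 2704 to 12152 CPM (median 8073 CPM) in bEECs and 18532 to 36659 CPM (median 23351 CPM) in bESCs. The cell types still did not overlap, but the log2 difference was -1.83 (SE 0.46, adjusted p = 0.0047) against -7.70 with VC, a change of 5.86 (SE 0.85, adjusted p = 0.036). Every library with protein was above every VC library of the same cell type. Without the devices of replicate 2 the difference after protein was -1.30 (adjusted p = 0.085).

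CXCL3 (ENSBTAG00000037778), another neutrophil chemokine, was at 0.906, 2.24 and 2.09 CPM in the VC bEECs and 52.9, 43.99 and 15.2 CPM in the VC bESCs, and after protein at 376 to 1162 CPM and 207 to 615 CPM. Its difference was -4.30 with VC, called, and 0.87 after protein, not called in the fit of all devices but called without rbCAPG replicate 3, without rbPDI replicate 3 and without all devices of replicate 3 (log2 difference up to 1.29, adjusted p down to 0.00957; change 5.17, SE 0.69, adjusted p = 0.0193). The paralogs GRO1 and CXCL2 had VC differences of -3.87 and -5.56 and differences after protein of 0.053 and -0.84, and their changes were not called (adjusted p = 0.0699 and 0.0542). TNFAIP2 (ENSBTAG00000035995), a gene induced by tumour necrosis factor, was at 0.514, 0.736 and 1.02 CPM in the VC bEECs and 4.14, 9.86 and 14.1 CPM in the VC bESCs. After protein it was at 3.06 to 14.7 CPM and 5.93 to 32.4 CPM, which overlap, and the difference went from -3.54 to -0.73 (change 2.81, SE 0.37, adjusted p = 0.0193).

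VEPH1 (ENSBTAG00000024643), which carries a pleckstrin homology domain, was the 1 gene that changed towards bESCs. It was at 3.51, 7.75 and 4.85 CPM in the VC bEECs and 0.220, 0.330 and 0.300 CPM in the VC bESCs, and after protein at 1.45 to 4.68 CPM (median 2.94 CPM) and 1.09 to 4.19 CPM (median 3.25 CPM). The difference went from 4.20 with VC to 0.050 after protein (change -4.14, SE 0.44, adjusted p = 0.0178), so VEPH1 separated the cell types with VC and was not called after protein. TNFSF15 and MARCHF3, a ubiquitin ligase, had changes in the same direction, -3.66 and -2.17, that were not called (adjusted p = 0.0615 and 0.0638).

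PROKR2, a prokineticin receptor, was the 1 named gene called in opposite directions, higher in bESCs with VC (log2 difference -4.21, SE 1.28, adjusted p = 0.0201) and higher in bEECs after protein (log2 difference 1.79, SE 0.70, adjusted p = 0.0443). Its levels were low, 0.0302, 0.0640 and 0 CPM in the VC bEECs and 0.396, 1.28 and 0.236 CPM in the VC bESCs, and 0.413 to 1.64 CPM and 0 to 2.25 CPM after protein, where the libraries overlapped. No bEEC library with VC held more than 3 counts, so its fitted VC difference is not a measured size. The change between them was not called (adjusted p = 0.335), and 14 of 23 alternatives lost the call after protein.

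**Figure D5:**
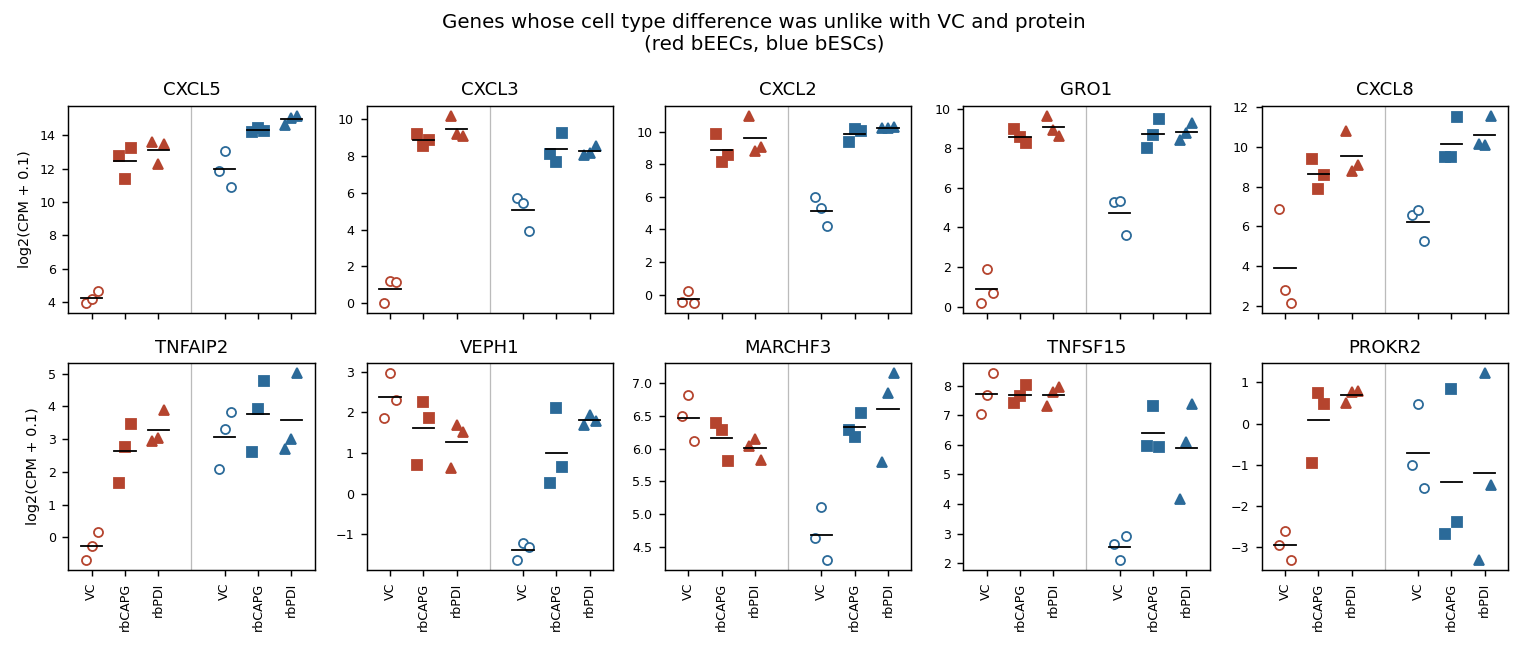
Level as log2(CPM + 0.1) in every library (vertical axis) of 10 genes, with bEECs in red and bESCs in blue, VC as open circles, rbCAPG as squares, rbPDI as triangles, and the group mean of the log values as a black bar. Of these genes, a change of the cell type difference from VC to protein was called only for CXCL5, CXCL3, TNFAIP2 and VEPH1. The VC bEECs of CXCL5, CXCL3 and TNFAIP2 lie below the other groups, least far for TNFAIP2, and the VC bESCs of VEPH1 lie below the bESCs with protein.

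Between the 2 proteins, the cell type difference was called as changed for 0 genes by edgeR and 0 by DESeq2, with 142 and 212 genes at an unadjusted p under 0.05. In both, 3 devices stood against 3. Differences with rbCAPG and rbPDI are given side by side for the genes above: 10.56 and 9.81 for MUC1, 6.31 and 6.07 for OCLN, -4.63 and -4.61 for VCAN, and -7.68 and -7.06 for C1S. For the genes whose difference had changed from VC they were -1.83 and -1.84 for CXCL5, 0.51 and 1.22 for CXCL3, -1.16 and -0.30 for TNFAIP2, and 0.63 and -0.52 for VEPH1. The interval of the rbPDI minus rbCAPG difference was -2.17 to -0.13 for VEPH1 (adjusted p = 1) and -1.97 to 1.94 for CXCL5, so differences of this size between the proteins were not excluded.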

How the data were processed

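RNA of bEECs and bESCs from 9 devices (18 libraries of amplified cDNA) had been sequenced in pairs of reads. By the methods and labels, the authors used Trimmomatic for trimming, STAR for alignment to ARS-UCD1.3 and featureCounts for counting on Ensembl genes. What they deposited for 36075 genes is an estimated count without normalization, since reads with several matches or overlapping genes were divided into fractions (23.3% of values held a fraction). No strand setting is given in the sources used here, so reads of overlapping or antisense genes cannot be separated.

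Counts were rounded and analysed in R 4.3.3. edgeR 4.0.16 (filterByExpr over the 6 groups, 17931 genes, TMM, quasi-likelihood F-test) was fitted to all 18 libraries with the device as a block and a cell type effect for each treatment (6 residual degrees of freedom, common dispersion 0.0989), and the contrast after protein was the mean of the rbCAPG and rbPDI effects. Same-numbered libraries share an animal by the study's methods, and both libraries of a device deviated together, though weakly, from their group means (correlation 0.0518 to 0.256 over 9 devices). The mean between different numbers, -0.0743, follows from centring each group on its own mean and is no separate check of the pairing. The rbCAPG and rbPDI libraries of 1 animal are not independent animals (correlations of 0.379 to 0.586). In the 18 pairs of replicates within the 6 groups, counts gave 97.5 to 467 times the chi-square that sampling alone gives, so no library was a copy of another in its group. The standard error is the absolute log2 difference over the square root of F. Bounds, floors and intervals cover counting error or the spread between devices only. With 3 counts as the floor, a count of 0 allows 6.78e-06% to 2.98e-05% of a library.

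Members and gene lists were chosen with earlier results of these data known. Genes described singly were drawn only from those with a symbol. They were the 10 largest called differences in each direction without overlap and with at least 5 CPM in the higher cell type, those with a called change, the 5 narrowest intervals of genes not called, the markers, genes called in opposite directions with VC and after protein, and members of the lists. Some genes and 1 of the gene lists are not reported here. Procedures were tested on simulated data. DESeq2 1.42.0 and other settings were alternatives. No column was left unused. Identifiers could not be matched to the reference table supplied, so no coordinates or sequences are given, and the authors' own fold changes and p-values were not used.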

Additional observations from a re-analysis of the deposited data

Results flagged for a closer look

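The AGR2 difference in the device rbPDI replicate 1 was 12.07 on the log2 scale, apart from the other 5 devices with protein, which lay between 14.51 and 15.07 (gap over range 0.814, above Dixon's 95% limit for 6 values). AGR2 had 6 counts in that bESC library, the shallowest of all, and 44 genes were looked at in this way, of which chance marks about 1 in 20. For 4 named genes the cell type difference with protein was unlike that with VC by the interaction test: VEPH1 (-4.14), TNFAIP2 (2.81), CXCL3 (5.17) and CXCL5 (5.86). Over 21 alternatives the adjusted p of edgeR or DESeq2 ran from 6.56e-15 to 0.221 for VEPH1 (called in 16), from 2.71e-09 to 0.501 for TNFAIP2 (12), from 6.93e-14 to 0.252 for CXCL3 (17) and from 2.8e-11 to 0.339 for CXCL5 (12).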

How the results depend on the processing

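The count of genes called after protein stayed within 1.5 times of 7703 under all 23 alternatives, from 5557 with a test against the fold limit (glmTreat) to 10944 with no fold limit, and from 6461 to 8031 when devices were left out. It was 7699 without the replicate block, with 7486 genes shared, and 7254 with both proteins of an animal summed. With glmTreat the calls were 4466 for rbCAPG, 4230 for rbPDI and 4414 for VC. The 15 genes with a changed difference became 25 with no replicate block, 138 with DESeq2, 93 with no filter on low counts and 8 with glmTreat, and 0 to 17 when devices were left out; the cause was not tested. Of 1472 values of 64 genes under alternatives, 18 lost a call, 27 gained one and 17 changed direction, the latter among genes not called: VEPH1 -0.23, RHOJ -0.055 and GRO1 -0.23 with library totals only, and, with devices left out, VEPH1 -0.16 to 0.20, GRO1 -0.47 to 0.56, IL6 -0.66 to 0.13 and CCL20 -0.86 to 0.34. The list counts without rbPDI replicate 1 were chosen after seeing the data. With 3 animals and a bESC library of 10072851 counts, small differences of genes near the floor were not detectable.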
